A study of Mus musculus with 16 samples.

Results

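The Sonic hedgehog pathway was followed through 9 genes in the growing tip of the mouse forelimb bud. They are the ligand Shh, the receptor and antagonist Ptch1, the antagonist Hhip, the co-receptors Gas1, Cdon and Boc, and the transcription factors Gli1, Gli2 and Gli3. They were chosen by gene symbol, all 9 were found among the 53800 genes of the deposited count table, and all 9 passed the filter on low counts that left 15501 genes for testing. RNA was sequenced in 16 libraries that form 8 groups of 2: the ectoderm (the epithelial cover of the bud) and the mesoderm (the mesenchyme under it) on 4 days of gestation (E9.5, E10.5, E11.5, and lastly E12.5). All embryos were of the B6 strain, and the labels name no mutation and no treatment in any group. The tissue was the outermost 150 microns of the forelimb, so the proximal limb was not sampled, and each library came from a batch of embryos, of a size the labels do not give. The ectoderm and mesoderm libraries of one stage with the same replicate number share one batch of embryos, which gives 8 embryo batches, 2 per stage.

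Hedgehog ligand is made in the limb bud by a small posterior patch of mesenchyme, the zone of polarizing activity, and patterns the digits. Without ligand, the receptor Ptch1 holds back the membrane protein Smo, and Gli3 (with some Gli2) is cut into a repressor. When ligand binds Ptch1 with the help of Gas1, Cdon or Boc, Smo is released and full-length Gli2 and Gli3 activate targets. Among these targets are Gli1, Ptch1 and Hhip, so that their RNA is widely read as a sign of Hedgehog response, and Ptch1 and Hhip in turn bind and hold back the ligand.

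Total gene counts per library ran from 10005867 to 30438214. Values are CPM (counts per 1e+06 counts of the library, with the edgeR library scaling) for one gene across libraries, and FPKM, which also divides by transcript length, where genes are compared with each other. All 12 surface epithelium markers were measured, and their summed level was 2500 to 7114 CPM in the ectoderm libraries and 29.7 to 124.7 CPM in the mesoderm libraries. The 13 limb mesenchyme markers summed to 562.2 to 2386 CPM in the ectoderm libraries and 2146 to 6040 CPM in those of mesoderm. Among them Col1a2 was higher in ectoderm in both batches of E9.5, E10.5 and E11.5. It had 715.4 and 305.1 CPM in ectoderm at E9.5, against 165.2 and 92.4 CPM in mesoderm. At E10.5 it had 992.2 and 621.3 against 878.9 and 469.6 CPM, and at E11.5 1429.6 and 829.8 against 1038.4 and 537.3 CPM. Pdgfra in ectoderm stood at 203.2 and 231.2 percent of its mesoderm at E10.5, and at 135.7 percent in batch 2 of E11.5. The other listed markers were lower in ectoderm in every batch. The median mesenchyme marker in ectoderm stood at 3.48 to 17.1 percent of its level in the mesoderm of the same batch in 7 batches, and at 41.1 percent in batch 1 of E11.5, so that this ectoderm library stands apart. Floor plate and notochord are other Shh sources of the embryo. Of their defining markers Olig2 was at 0 in all libraries, Foxa2 and Noto did not exceed 0.2 CPM in any, and T reached 2.1 CPM. In bulk tissue, fewer cells of a type and less RNA per cell cannot be told apart.

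Across the layers, the 9 genes were mostly lower in ectoderm, with Ptch1 as the one member whose average over the stages was above that of mesoderm. Averaged over the 4 stages, 7 of the 9 members were called lower in ectoderm, beside 45.7 percent of all tested genes called in either direction and 21.4 percent called lower. Here a call means an edgeR quasi-likelihood p under 0.05 after Benjamini-Hochberg adjustment over all 15501 genes. At E9.5, 4 of 9 were called, all lower (Gli1, Gli3, Boc and Cdon), with 21.4 percent of all genes called and 8.29 percent called lower. At E10.5, 3 of 9 were called, all lower (Shh, Gli3 and Boc), with 26.4 percent of all genes and 10.2 percent lower. At E11.5, 4 of 9 were called, all lower (Gli3, Hhip, Boc and Cdon), with 20.6 percent and 7.69 percent lower. At E12.5, 5 of 9 were called, all lower (Gli1, Gli3, Hhip, Boc and Cdon), with 26.4 percent and 13.2 percent lower. The median log2 difference of the 9 members, ectoderm minus mesoderm, was -1.26 on average over the stages, beside 0.01 over all tested genes. Blocked by embryo batch, which compares the layers of the same embryos, the counts rose to 7, 5, 7 and 6 of 9 at the 4 stages and to 9 of 9 on average. All genes then rose too, to 42.4, 48.6, 40 and 45.7 percent at the stages and 65.9 percent on average. In this blocked test Ptch1 was called higher in ectoderm at E9.5, E10.5, E11.5 and on average, and every other member called there was called lower.

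**Figure D1:**
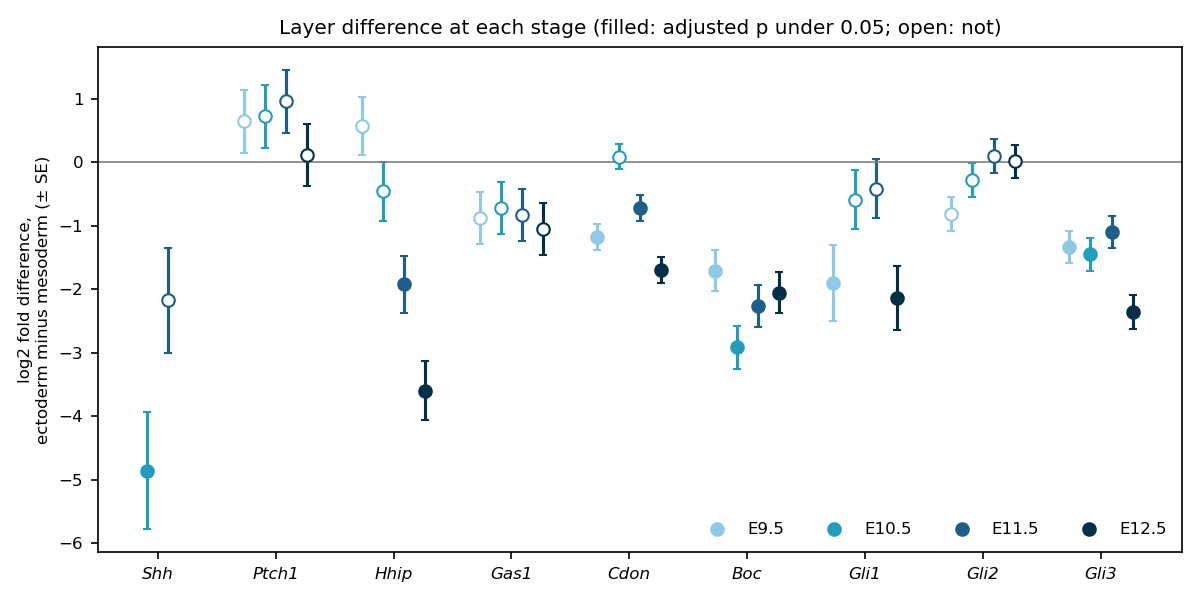
Log2 fold difference between ectoderm and mesoderm for each of the 9 genes at each stage, with its standard error (2 libraries in each group, a spread shared over 16 libraries). Filled points passed the test without a block and open points did not; Shh is left out at E9.5 and E12.5, where it had few or no counts. Boc and Gli3 lie below 0 at all 4 stages, and Ptch1 lies above 0.

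Without a block, edgeR called more members from E9.5 to E10.5 than in either later step of a day. With the replicate number as a block it called more in the last step. In mesoderm, 4 of 9 members were called in the first step without the block (Shh, Ptch1 and Gli1 higher, Cdon lower). That stood beside 9.24 percent of all genes (5.3 percent higher and 3.95 percent lower). In ectoderm, 2 of 9 were called (Ptch1 and Gli1 higher), beside 4.14 percent (2.95 percent higher). From E10.5 to E11.5, 0 of 9 were called in ectoderm by edgeR, with 0.00645 percent of all genes called, 0 members at an unadjusted p under 0.05 and 0 by DESeq2. In mesoderm, 0 of 9 were called in the same step by edgeR, with 0.394 percent of all genes called, 3 members at an unadjusted p under 0.05 and 1 called by DESeq2. From E11.5 to E12.5, Gli1 was called lower in ectoderm (1 of 9, with 0.426 percent of all genes and 0.31 percent lower) and Cdon was called higher in mesoderm (1 of 9, with 0.31 percent and 0.148 percent higher). Over the whole course from E9.5 to E12.5, Gli1 was called higher in ectoderm (1 of 9, with 16.1 percent of all genes and 9.1 percent higher). In mesoderm, 3 of 9 were called, all higher (Gli1, Hhip and Boc), with 29.6 percent of all genes and 17 percent higher. The replicate number as a block added most in the last step. There it called 4 of 9 members in ectoderm and 7 of 9 in mesoderm, beside 3.64 and 5.19 percent of all genes. In the first step it called 2 and 5 members, beside 15.3 and 27.7 percent of all genes. DESeq2 called 4 members in ectoderm and 7 in mesoderm in the last step, and 3 and 5 in the first. At an unadjusted p under 0.05 edgeR gave 5 and 8 in the last step, and 3 and 5 in the first. The DESeq2 and unadjusted counts of this paragraph stand without the share of all genes, so they are counts of members only and do not rank the steps. The replicate block also called 2 of 9 members in mesoderm from E10.5 to E11.5, beside 4.81 percent of all genes.

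**Figure D2:**
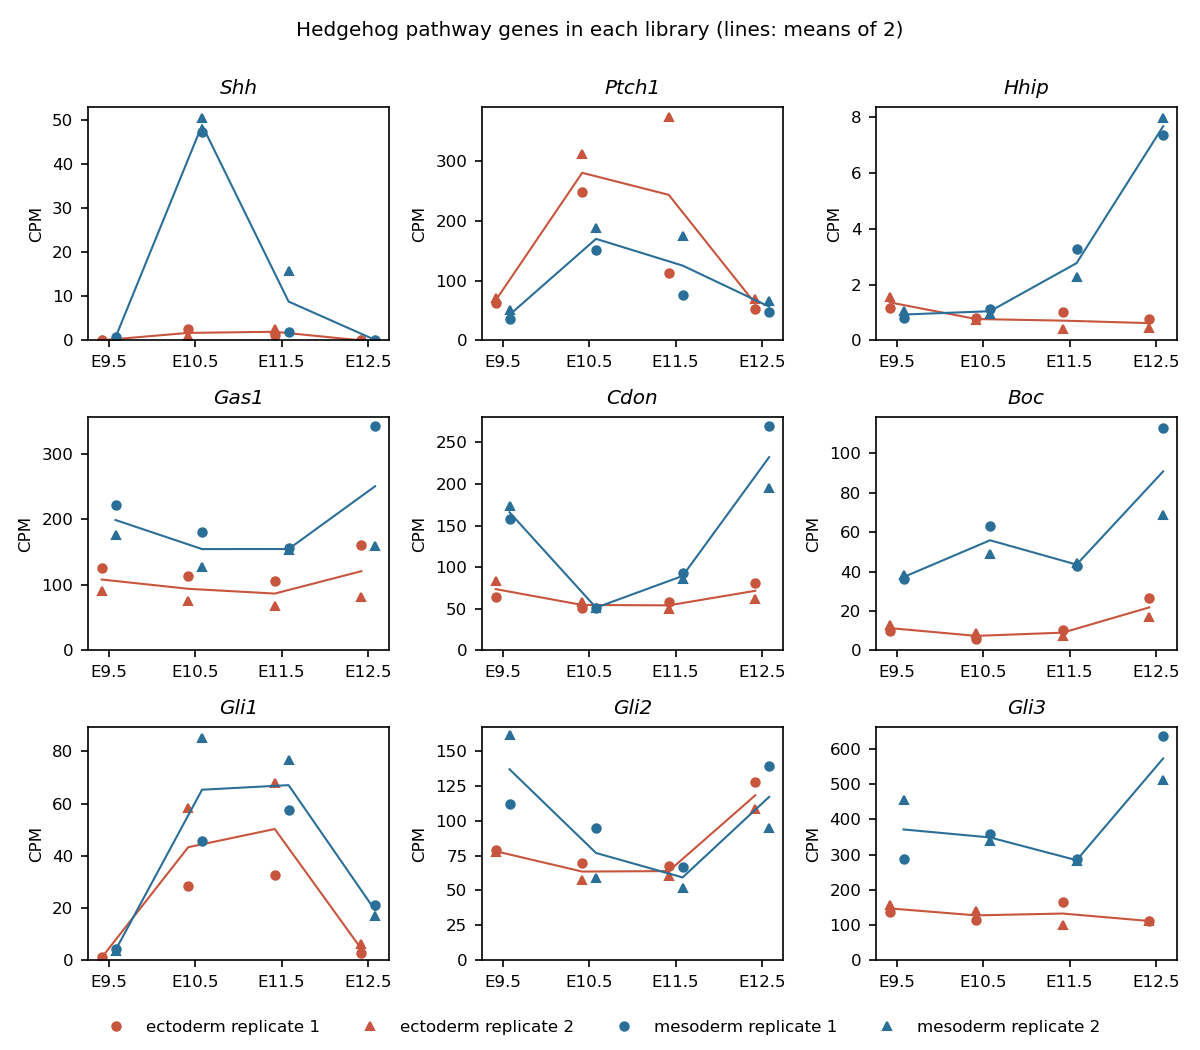
CPM of each gene in each of the 16 libraries by stage; colours mark the layer, circles replicate 1, triangles replicate 2, and lines join the means of 2 libraries. Shh peaks in mesoderm at E10.5 (47.3 and 50.5 CPM), Ptch1 and Gli1 are high in both layers at E10.5 and E11.5, and Hhip in mesoderm is highest at E12.5, at 7.37 and 7.99 CPM.

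Shh (ENSMUSG00000002633, mm10 chr5:28456815-28467256, minus strand, protein-coding, 3 exons) was close to silent in mesoderm at E9.5, high at E10.5, and close to silent again at E12.5. In mesoderm it had 17 and 9 counts at E9.5 (0.812 and 0.553 CPM) and 1371 and 740 counts at E10.5 (47.3 and 50.5 CPM). At E11.5 it had 42 and 237 counts (1.86 and 15.8 CPM), and at E12.5 it had 1 and 3 counts (0.0436 and 0.183 CPM). Both E10.5 libraries thus stood above all other mesoderm libraries, and the 2 batches of E11.5 were far apart. The rise from E9.5 to E10.5 was 69.2-fold (95 percent counting interval 47.1 to 106.2) and passed the test (edgeR quasi-likelihood adjusted p = 0.00365). From E11.5 to E12.5 the counts differed 73.0-fold (95 percent counting interval 28.2 to 270.0), with an edgeR adjusted p of 0.0594 and of 0.0104 with the replicate number as a block. The step from E10.5 to E11.5 was called lower with that block (log2 -2.76 ± 0.65 SE, edgeR adjusted p = 0.0354) and not without it (0.269). Counting intervals cover counting error only.

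In ectoderm Shh had 0 and 1 counts on the first day and 0 and 0 on the last. Between them it had 28 and 14 counts at E10.5 (2.48 and 0.934 CPM) and 30 and 40 counts at E11.5 (1.28 and 2.65 CPM). The E11.5 level was at least 22.4-fold above that of E12.5, taking 3 counts over the 2 libraries as the limit that a count of 0 allows. That bound rests on counts alone, and edgeR did not call the step (adjusted p = 0.1065). Nor did it call the ectodermal change from E9.5 to E10.5 (adjusted p = 0.1051). At E10.5 ectodermal Shh stood at 5.25 and 1.85 percent of the mesoderm of the same batch, while the median mesenchyme marker stood at 8.34 and 10.8 percent. At E11.5 it stood at 68.6 and 16.8 percent, and the median mesenchyme marker at 41.1 and 6.06 percent. The part of carried-over mesoderm in these counts was not tested. The layer difference at E10.5 was called (log2 -4.86 ± 0.92 SE, edgeR quasi-likelihood adjusted p = 0.00285), and that at E11.5 was called when blocked by embryo batch (log2 -1.75 ± 0.46 SE, edgeR adjusted p = 0.0139) and not without it (0.100). The difference averaged over the stages was called lower in ectoderm (edgeR adjusted p = 0.00535), and not without mesoderm replicate 2 of E12.5 (0.0862).

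Batch 1 of E11.5 held less of Shh and of several genes near it in the pathway than batch 2, in both layers. Mesodermal Shh was 1.86 against 15.8 CPM, and Ptch1 was 75.2 against 174.9 CPM in mesoderm and 113.4 against 373.1 CPM in ectoderm. Gli1 was less far apart, with 57.5 against 76.7 CPM in mesoderm and 32.7 against 67.9 CPM in ectoderm. Grem1, a BMP antagonist that links Shh to the ridge, was 13.97 against 62.1 CPM in mesoderm. Fgf4, a ridge FGF maintained by Shh, was 2.26 against 31.0 CPM in ectoderm. In the 4 libraries of E12.5 Shh, Ptch1, Grem1 and Fgf4 were low too, so that batch 1 lay between batch 2 and E12.5 for Shh and Ptch1. The other members went the other way. In ectoderm Gli2, Gli3, Hhip, Boc, Cdon and Gas1 were all higher in batch 1, such as Gli3 at 165.5 against 100.3 CPM. In mesoderm they were higher in batch 1 too, apart from Boc (42.7 against 44.4 CPM). The median mesenchyme marker in this ectoderm stood at 41.1 percent of its mesoderm, and at 6.06 percent in batch 2. The replicates also differ in the RNA kit, which cannot be told apart from the batch.

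Ptch1 (ENSMUSG00000021466, mm10 chr13:63508328-63573598, minus strand, protein-coding) is both the Hedgehog receptor and a target that Hedgehog induces, and it was abundant in both layers. In ectoderm, over the 4 stages in order, it stood at 62.7 and 71.1, then 248.1 and 312.0, then 113.4 and 373.1, and at last 52.98 and 69.7 CPM. In mesoderm it stood at 35.1 and 50.4, then 151.3 and 188.1, then 75.2 and 174.9, and at last 46.9 and 66.1 CPM. Within each of the 8 embryo batches the ectoderm library was the higher one, at 105.4 to 213.2 percent of its mesoderm partner. The average layer difference was 0.61 ± 0.25 SE on the log2 scale, with an edgeR quasi-likelihood adjusted p of 0.0628. Blocked by embryo batch it was 0.59 ± 0.06 SE, with an edgeR adjusted p of 1.2e-05. By stage, the blocked log2 differences of the first 3 days were 0.66, 0.72 and 0.85, with edgeR adjusted p of 0.00221, 0.000773 and 0.000377. At E11.5 the difference without a block turned to -0.135 when ectoderm replicate 2 was left out.

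The first-day rise of Ptch1 was of like size in the layers. It was 2.07 ± 0.51 SE on the log2 scale in ectoderm (edgeR quasi-likelihood adjusted p = 0.0461) and 1.99 ± 0.51 SE in mesoderm (0.0319). The difference between these changes was 0.08 ± 0.70 SE, with an edgeR adjusted p of 1. The ectoderm call was lost when any library of E9.5, E10.5 or E12.5 was left out (adjusted p 0.0563 to 0.272), and the mesoderm call when any mesoderm library of E9.5 or E10.5 was left out (0.0831 to 0.204). With the replicate number as a block the edgeR adjusted p were 0.00085 and 0.000504. The change from E11.5 to E12.5 in ectoderm was called with that block (log2 -1.85 ± 0.30 SE, edgeR adjusted p = 0.00638) and not without it (0.144).

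Ptch1 has 5 annotated protein-coding transcripts, the only kind taken here, each with a first exon of its own. Over all 16 libraries, 203 of the 261 counts in these first exons (77.8 percent) fell in that of Ptch1-201, 36 in that of Ptch1-202, 19 in that of Ptch1-205, 3 in that of Ptch1-207 and 0 in that of Ptch1-203. Longer exons collect more reads, and per base the gap between the leading pair nearly closed. The first exon of Ptch1-201 is 374 bases long and held 0.543 counts per base, and that of Ptch1-202 is 78 bases long and held 0.462. Those of Ptch1-205 (349 bases) and Ptch1-207 (35 bases) held 0.0544 and 0.0857 counts per base. The 250 bases before the start in the RefSeq table are printed here with those of Hhip, the other antagonist that Hedgehog induces, because the RNA of this pair moved so differently (RefSeq promoter table, build GRCm38.p6, 5′ to 3′ on the minus strand, chr13:63565736-63565985 for Ptch1 and chr8:80058009-80058258 for Hhip).
Ptch1: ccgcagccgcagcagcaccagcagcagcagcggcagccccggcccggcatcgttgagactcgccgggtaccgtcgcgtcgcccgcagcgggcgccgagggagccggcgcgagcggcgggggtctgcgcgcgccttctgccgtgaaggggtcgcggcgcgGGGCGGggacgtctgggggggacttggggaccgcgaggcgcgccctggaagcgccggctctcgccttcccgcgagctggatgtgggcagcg
Hhip: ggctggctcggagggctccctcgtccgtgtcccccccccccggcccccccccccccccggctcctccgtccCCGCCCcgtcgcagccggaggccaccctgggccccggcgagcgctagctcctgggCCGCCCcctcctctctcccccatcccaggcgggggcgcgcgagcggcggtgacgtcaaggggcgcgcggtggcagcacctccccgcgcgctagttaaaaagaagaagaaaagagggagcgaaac
Capitals mark the GC box GGGCGG, which on the other strand reads as CCGCCC (both strands were searched). It was found 1 time before Ptch1 and 2 times before Hhip, and 32.7 percent of 32851 promoters hold it in the same 250 bases. Both windows are rich in G and C (78.4 percent for Ptch1 and 76.0 percent for Hhip, beside a median of 52.4 percent). The GLI binding word GACCACCCA (TGGGTGGTC on the other strand) was searched in windows of 300 bases that also take in the first bases of the gene. No match, exact or with 8 of 9 letters, was found in the windows of the 6 members in the table (Ptch1, Gli2, Gli3, Hhip, Cdon and Gas1), and 0.253 percent of all promoters hold an exact match and 6.74 percent one of 8 letters. A lack of these letters in this window says nothing of GLI binding elsewhere. The table did not list Shh, Gli1 and Boc.

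Hhip (ENSMUSG00000064325, mm10 chr8:79965851-80058006, minus strand, protein-coding), a membrane protein that binds and traps Hedgehog ligand, was low throughout and rose late, in mesoderm. In mesoderm, over the 4 stages in order, it had 0.812 and 1.05, then 1.14 and 0.955, then 3.28 and 2.26, and at last 7.37 and 7.99 CPM. In ectoderm it ran from 0.397 to 1.57 CPM over all 8 libraries, with its highest values at E9.5. At E9.5 both ectoderm libraries were above both mesoderm libraries and at E10.5 both were below, and neither difference passed the test. At E11.5 and E12.5 every mesoderm library was above every ectoderm library of its stage. Hhip rose in mesoderm from E9.5 to E12.5 by 3.04 ± 0.45 SE on the log2 scale (edgeR quasi-likelihood adjusted p = 0.000622). It was 1.92 ± 0.45 SE log2 units lower in ectoderm at E11.5 (edgeR adjusted p = 0.0101) and 3.60 ± 0.47 SE log2 units lower at E12.5 (0.000169). In counts the E12.5 difference was 300 in mesoderm against 24 in ectoderm, an 11.8-fold ratio per library size with a 95 percent counting interval of 7.76 to 18.7. The E11.5 call was lost without ectoderm replicate 2 of E11.5 (adjusted p = 0.0852) or without mesoderm replicate 1 of E11.5 (0.0765).

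The change of Hhip from E9.5 to E12.5 differed between the layers by -4.17 ± 0.65 SE log2 units (edgeR quasi-likelihood adjusted p = 0.00272). It was the 1 member of 9 called in this comparison, beside 8.27 percent of all genes (3.12 percent higher and 5.15 percent lower). In the fit blocked by embryo batch, 4 of 9 were called (Gli2, Gli3, Hhip and Cdon), beside 25 percent of all genes. Hhip and its 2 fellow targets Ptch1 and Gli1 were thus out of step, since Ptch1 and Gli1 were highest at E10.5 or E11.5 in each layer while Hhip in mesoderm was highest at E12.5.

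The co-receptors Gas1, Cdon and Boc bind ligand and pass it to Ptch1, and on average over the stages they were higher in mesoderm. Boc (ENSMUSG00000022687, mm10 chr16:44485049-44558897, minus strand) did not overlap between the layers. It ran from 5.68 to 26.7 CPM in the 8 ectoderm libraries and from 36.3 to 113.1 CPM in the 8 mesoderm libraries. Every mesoderm library was above every ectoderm library, which was so for 4.43 percent of all tested genes, and among the 9 members for Boc and Gli3. Its log2 differences on the 4 days were -1.71, -2.91, -2.27 and -2.05, and -2.24 ± 0.16 SE on average (edgeR quasi-likelihood adjusted p = 5.08e-07). Boc stood at 9.02 to 33.96 percent of mesoderm in ectoderm, and the median mesenchyme marker at 3.48 to 41.1 percent. The part of carried-over mesoderm in ectodermal Boc was not tested.

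Boc rose in mesoderm from 36.3 and 38.2 CPM at E9.5 to 113.1 and 68.6 CPM at E12.5 (log2 1.29 ± 0.31 SE, edgeR quasi-likelihood adjusted p = 0.00999). The call was lost without either mesoderm library of E9.5 or without mesoderm replicate 1 of E12.5 (adjusted p 0.0503 to 0.101, with a log2 change of 0.88 in the last case). In ectoderm Boc had 9.71 and 13.0 CPM at E9.5 and 26.7 and 17.0 CPM at E12.5. That change was called with the replicate number as a block (log2 0.90 ± 0.28 SE, edgeR adjusted p = 0.0262, and 0.0716 without).

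Cdon (ENSMUSG00000038119, mm10 chr9:35421128-35507652, plus strand) dipped in mesoderm when Shh peaked. In mesoderm it went from 158.2 and 173.9 CPM to 51.5 and 51.3, then 93.2 and 85.8, and at last 269.6 and 195.1 CPM over the 4 stages. The 4 stages did not overlap, and the order of the stages was E10.5, E11.5, E9.5, E12.5 from low to high. In ectoderm it stayed between 49.6 and 83.1 CPM in all 8 libraries. The fall to E10.5 was -1.69 ± 0.21 SE log2 units in mesoderm (edgeR quasi-likelihood adjusted p = 0.000545), and the rise from E11.5 to E12.5 was 1.38 ± 0.20 SE (0.0237). The last call was lost without ectoderm replicate 1 of E10.5, either mesoderm library of E11.5 or mesoderm replicate 1 of E12.5 (adjusted p 0.0501 to 0.252). The rise from E10.5 to E11.5 in mesoderm, 0.80 ± 0.18 SE, was called with the replicate number as a block (edgeR adjusted p = 0.0226, and 0.135 without).

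The layer difference of Cdon came and went. It was -1.17 ± 0.20 SE log2 units at E9.5 (edgeR quasi-likelihood adjusted p = 0.00157) and 0.09 ± 0.20 SE a day later (0.813). It was -0.72 ± 0.20 SE at E11.5 (edgeR adjusted p = 0.0253) and -1.70 ± 0.21 SE on the last day (9.94e-05). At E10.5 the libraries of the layers overlapped. The first-day change differed between the layers by 1.26 ± 0.29 SE log2 units (edgeR adjusted p = 0.0461, and 0.00056 when blocked by embryo batch). Without a block it was the 1 member of 9 called in this comparison, which was added after the values had been seen, beside 2.27 percent of all genes. Blocked by embryo batch, Boc was called as well (log2 -1.21 ± 0.45 SE and edgeR adjusted p = 0.294 without the block, 0.0417 with it). With that block 8.26 percent of all genes were called. The same comparison of the later steps called 0 of 9 by edgeR without a block, beside 0.0258 percent of all genes from E10.5 to E11.5 and 0.0968 percent from E11.5 to E12.5. At an unadjusted p under 0.05 those steps gave 3 and 4 members, for which the share of all genes is not given here. Blocked by embryo batch they gave 1 (Cdon) and 3 (Gli1, Gli3 and Cdon), beside 1.04 and 2.55 percent of all genes. Cdon there had edgeR adjusted p of 0.0286 and 0.00853. The E11.5 call was lost without ectoderm replicate 2 (adjusted p = 0.201) or either mesoderm library of E11.5 (0.124 and 0.0701).

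Gas1 (ENSMUSG00000052957, mm10 chr13:60174405-60177365, minus strand) ran from 66.9 to 159.9 CPM in ectoderm and from 127.7 to 341.9 CPM in mesoderm, with replicate 1 above replicate 2 in all 8 groups. At E12.5 in mesoderm the 2 libraries were 341.9 and 158.5 CPM. The replicates were extracted with different kits, and the part of the kit in this gap was not tested. Within each batch ectoderm stood at 43.7 to 68.2 percent of its mesoderm. The average layer difference was -0.87 ± 0.21 SE log2 units (edgeR quasi-likelihood adjusted p = 0.00442). No single stage passed the test without a block (adjusted p 0.0875 to 0.245). Blocked by embryo batch all 4 stages did, at -0.89, -0.72, -0.87 and -1.03 log2 units, with an edgeR adjusted p of 0.00128 or less at each.

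Gli1 (ENSMUSG00000025407, mm10 chr10:127329882-127341974, minus strand) is the activator whose RNA depends on Hedgehog input. Its first-day change was the largest of the members in ectoderm, with Shh close to it (log2 5.36 and 5.23). In mesoderm Gli1 had the largest such change apart from Shh. In ectoderm it had 1.16 and 0.965 CPM on the first day, then 28.4 and 58.3, then 32.7 and 67.9, and at last 2.65 and 6.20 CPM. In mesoderm it had 4.20 and 3.63, then 45.5 and 85.1, then 57.5 and 76.7, and at last 21.4 and 17.0 CPM. Both layers thus rose and fell, with ectoderm lower at the first and last stage and overlapping mesoderm between. The rise to E10.5 was 5.36 ± 0.61 SE log2 units in ectoderm (edgeR quasi-likelihood adjusted p = 0.000842) and 4.05 ± 0.53 SE in mesoderm (0.000924). In counts, the ectoderm ratio was 43.9-fold, with a 95 percent counting interval of 29.98 to 66.8. The difference between these rises, 1.31 ± 0.76 SE, did not pass the test (edgeR adjusted p = 0.649, and 0.196 when blocked by embryo batch).

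From E11.5 to E12.5 Gli1 fell by 3.52 ± 0.52 SE log2 units in ectoderm (edgeR quasi-likelihood adjusted p = 0.0243). Without ectoderm replicate 1 of E12.5 this call was lost (log2 -3.02, adjusted p = 0.330). In mesoderm the fall was called with the replicate number as a block (log2 -1.74 ± 0.31 SE, edgeR adjusted p = 0.00945, and 0.167 without). The difference between the falls was -1.72 ± 0.68 SE, with an edgeR adjusted p of 0.536, or of 0.0455 when blocked by embryo batch. Gli1 did not return to its first level in mesoderm, where it stayed 2.29 ± 0.51 SE log2 units above E9.5 (edgeR adjusted p = 0.00604). The same change was 2.05 ± 0.60 SE in ectoderm (0.0387). That ectoderm call was lost without either E9.5 library of either layer or without ectoderm replicate 2 of E12.5 (adjusted p 0.0521 to 0.245, with a log2 change of 1.34 in the last case).

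Between the layers Gli1 was lower in ectoderm by 1.90 ± 0.60 SE log2 units at E9.5 (edgeR quasi-likelihood adjusted p = 0.0433) and by 2.13 ± 0.50 SE at E12.5 (0.00782), and by 1.26 ± 0.26 SE on average (0.00164). The E9.5 call was lost without any E9.5 library and without any mesoderm library of E11.5 or E12.5 (adjusted p 0.0541 to 0.227). The E12.5 call was lost without ectoderm replicate 1 of E12.5 (0.0772). In ectoderm Gli1 stood at 26.6 to 88.6 percent of the same batch's mesoderm in 7 batches and at 12.4 percent in batch 1 of E12.5. Gli1 shares 62 exonic bases with Arhgap9 on the other strand, and the sources used here do not give how strand was treated in counting. Arhgap9 had 755 counts in all libraries and Gli1 had 9096.

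Gli3 (ENSMUSG00000021318, mm10 chr13:15463235-15730026, plus strand), the main Hedgehog repressor of the limb when no ligand is present, was higher in mesoderm at every stage. In mesoderm it had 287.9 and 454.7 CPM on the first day, then 359.4 and 337.9, then 286.3 and 281.8, and at last 635.0 and 510.1 CPM. In ectoderm it ran from 100.3 to 165.5 CPM, and every mesoderm library was above every ectoderm library. Within each batch ectodermal Gli3 stood at 17.55 to 57.79 percent of its mesoderm, above the median mesenchyme marker of that batch. The part of carried-over mesoderm in ectodermal Gli3 was not tested. The log2 differences on the 4 days were -1.33 ± 0.26, -1.45 ± 0.26, -1.10 ± 0.26 and -2.36 ± 0.27 (SE). The edgeR quasi-likelihood adjusted p were 0.00311, 0.00151, 0.0101 and 5.74e-05, and the E11.5 call was lost without ectoderm replicate 2 of E11.5 (0.107). The library left in that case, ectoderm replicate 1 of E11.5, was the highest ectoderm library for Gli3 (165.5 CPM) and the one with the most mesenchyme marker RNA. In mesoderm the rise from E11.5 to E12.5 was called with the replicate number as a block (log2 1.01 ± 0.23 SE, edgeR adjusted p = 0.0268, and 0.143 without). That step differed between the layers by -1.26 ± 0.36 SE log2 units, with an edgeR adjusted p of 0.261, or of 0.0323 when blocked by embryo batch. The whole change from E9.5 to E12.5 differed by -1.05 ± 0.24 SE with that block (edgeR adjusted p = 0.0107, and 0.117 without).

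Gli2 (ENSMUSG00000048402, mm10 chr1:118834132-119053619, minus strand), the main activator that acts before Gli1 is induced, differed least between the layers. In ectoderm it had 78.6 and 77.6 CPM on the first day, then 69.4 and 57.6, then 67.2 and 60.6, and at last 127.6 and 108.5 CPM. In mesoderm it had 111.9 and 161.4, then 94.7 and 58.9, then 66.9 and 51.8, and at last 139.2 and 94.7 CPM. The layers overlapped on the 3 later days, and both mesoderm libraries were higher at E9.5 (log2 difference -0.81 ± 0.27 SE, edgeR quasi-likelihood adjusted p = 0.0532, and 0.00181 when blocked by embryo batch). Its group means were lower at E10.5 and E11.5, when Gli1 was high, than at E9.5 and E12.5 in both layers, though in mesoderm the libraries of E10.5 and E12.5 met at 94.7 CPM. Its rise from E11.5 to E12.5 was called in both layers with the replicate number as a block. That rise was 0.88 ± 0.21 SE log2 units in ectoderm (edgeR adjusted p = 0.0396, and 0.231 without the block) and 0.97 ± 0.21 SE in mesoderm (0.0235, and 0.181 without).

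Per transcript length, the order of the members also changed with stage. In mesoderm Gas1 was the highest at every stage (43.8 to 73.4 FPKM as group means) and Gli3 the second (31.3 to 63.3 FPKM). At E12.5 the libraries of this pair overlapped. In ectoderm Gas1 was first on the first and last day (29.4 and 33.3 FPKM), and Ptch1 was first at E10.5 and E11.5 (31.1 and 28.6 FPKM), where its libraries overlapped those of Gas1. Shh in mesoderm at E10.5 reached 14.3 ± 1.57 FPKM (SD, n = 2), next to Gli1 at 14.2 ± 6.37 FPKM, and the pair overlapped. Hhip had its highest mean at 0.748 ± 0.116 FPKM in mesoderm at E12.5.

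The balance of the paired targets Ptch1 and Gli1 differed between the layers. This ratio was chosen after the values had been seen, and it is given as a description with no test. The log2 ratio of Ptch1 to Gli1 counts was higher in ectoderm than in the mesoderm of the same batch in 8 of 8 batches, by 1.90 ± 0.75 (SD, n = 8), with a range of 1.27 to 3.19. In ectoderm there were 3.47 to 8.74 counts of Ptch1 for each count of Gli1 at E10.5 and E11.5, and 1.31 to 3.32 in mesoderm. At E9.5 the ratio was 54.0 and 73.6 in ectoderm and 8.35 and 13.9 in mesoderm, and at E12.5 it was 19.97 and 11.2 in ectoderm and 2.19 and 3.90 in mesoderm. In ectoderm all 4 libraries of E10.5 and E11.5 thus had a lower ratio than those of E9.5 and E12.5, and in mesoderm E9.5 stood above the 3 later stages. With FPKM in place of counts the mean difference was 1.80.

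**Figure D3:**
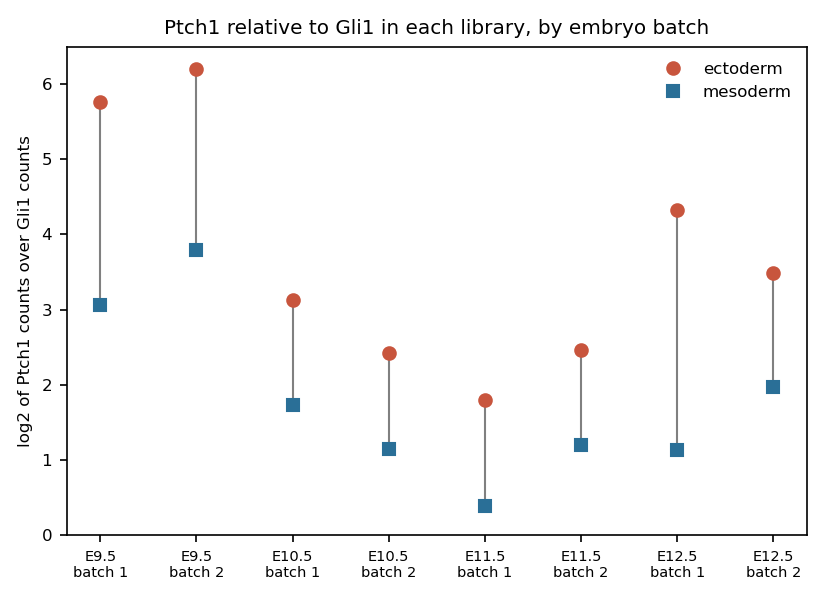
Log2 of the ratio of Ptch1 counts to Gli1 counts in each library, with a grey line joining the ectoderm and the mesoderm of one embryo batch. Ectoderm is above mesoderm in all 8 batches, by 1.27 to 3.19 log2 units.

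Other genes of the pathway were taken from a list of 36, of which 34 were tested (Dhh and Scube2 had too few counts). Averaged over the stages, 8 of the 34 were called higher in ectoderm and 6 lower, with a median log2 difference of -0.05, beside 45.7 percent of all genes called and a median of 0.01. Among those higher was Scube3, a secreted protein of a family that helps release ligand, with means of 416.8 CPM in the ectoderm and 86.9 CPM in the mesoderm (log2 2.46 ± 0.09 SE, edgeR quasi-likelihood adjusted p = 1.99e-09). Lrp2, an endocytic receptor that takes up Shh, had 5.51 CPM in ectoderm and 1.05 CPM in mesoderm and was called higher (edgeR adjusted p = 4.44e-05). Ulk3, a kinase that acts on Gli proteins, was higher by 1.36 ± 0.32 SE log2 units (0.00388), and Arl13b, a GTPase of the cilium, by 0.48 ± 0.09 SE (0.000976). Among those lower were Evc, a ciliary partner of Smo (log2 -0.54 ± 0.09 SE, edgeR adjusted p = 0.000465), and the adenylyl cyclase Adcy5 (-0.56 ± 0.19 SE, 0.0346). Sufu, which holds Gli proteins back, was 99.8 CPM in ectoderm and 131.2 CPM in mesoderm (-0.40 ± 0.10 SE, 0.00615). Smo, the signal transducer, was flat, with group means of 308.8 to 366.6 CPM over all 8 groups. Blocked by embryo batch 24 of the 34 were called, beside 65.9 percent of all genes.

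From E9.5 to E12.5, 2 of the 34 listed genes were called in ectoderm, Evc and Iqce, both higher, beside 16.1 percent of all genes. In mesoderm 7 were called higher and 4 lower, beside 29.6 percent of all genes. Adcy5 rose from 1.55 to 20.1 CPM (log2 3.70 ± 0.42 SE, edgeR quasi-likelihood adjusted p = 0.000122) and Evc from 27.8 to 72.5 CPM (1.38 ± 0.19 SE, 0.000335). Ihh, the Hedgehog ligand of growing cartilage, went from 5 to 56 counts (edgeR adjusted p = 0.0381). Disp1, which releases ligand from cells, fell by 1.18 ± 0.16 SE log2 units (edgeR adjusted p = 0.000374) and Scube1 by 1.30 ± 0.39 SE (0.0268). Lrp2 went from 135 to 2 counts (0.0037). Dhh, the third Hedgehog ligand, had 0 to 9 counts in each group. With the replicate number as a block, 9 of the 34 were called in ectoderm and 19 in mesoderm, beside 35.4 and 51.5 percent of all genes.

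**Figure D4:**
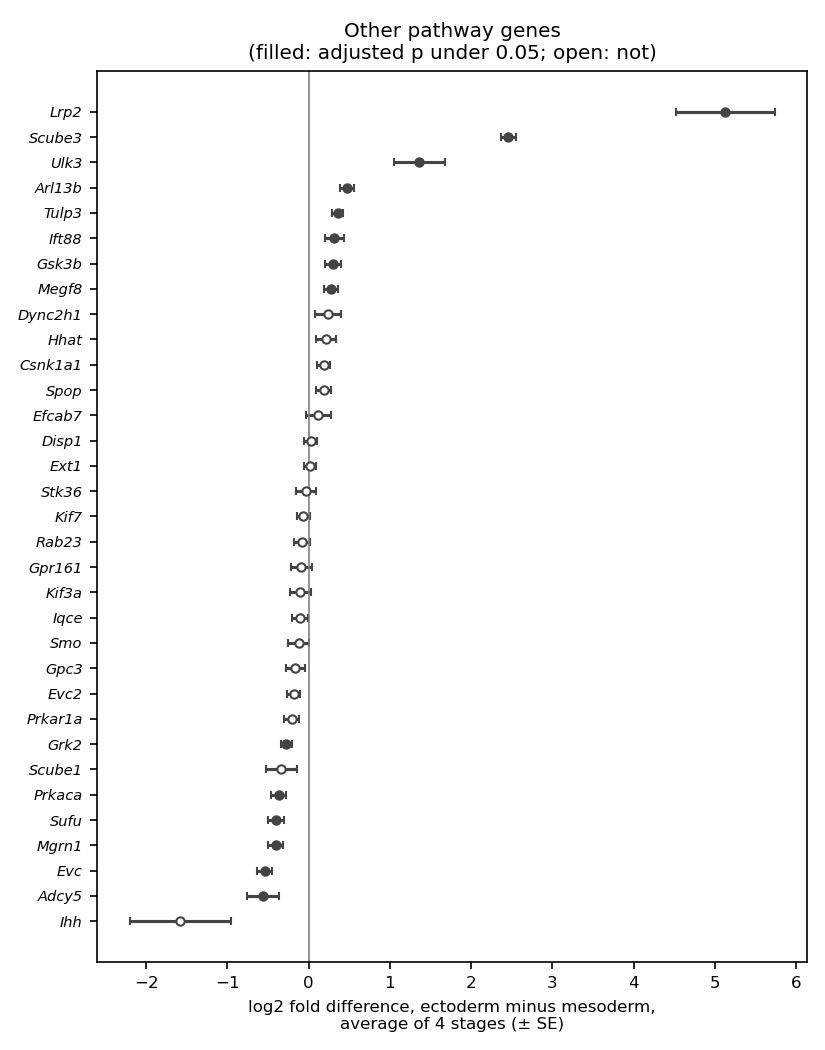
Log2 fold difference between ectoderm and mesoderm, averaged over 4 stages, with its standard error, for tested genes of the pathway list. Filled points passed the test (8 higher and 6 lower in ectoderm); Lrp2 and Scube3 lie farthest above 0.

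Genes that act above or below Hedgehog in the limb were taken from a second list of 27, of which 25 were tested (Foxf1 and Foxf2 had too few counts). On average over the stages 7 were called higher in ectoderm and 13 lower, with a median log2 difference of -0.30, beside 45.7 percent of all genes called and a median of 0.01. The widest called differences were those of the ridge growth factors Fgf8 (475.5 CPM in ectoderm and 2.41 CPM in mesoderm) and Fgf4 (47.8 and 0.193 CPM), and of 4 Hox genes that pattern the distal limb. Hoxd13 had means of 53.8 CPM in ectoderm and 594.1 CPM in mesoderm (log2 -3.84 ± 0.39 SE, edgeR quasi-likelihood adjusted p = 7.35e-06), and Hoxd10, Hoxd11 and Hoxa13 had log2 differences from -3.86 to -3.75. From E9.5 to E12.5, 3 were called higher and 2 lower in ectoderm, beside 16.1 percent of all genes, and 9 higher and 2 lower in mesoderm, beside 29.6 percent. In ectoderm Hoxa13 went from 0.0302 to 6.18 CPM, Hoxd12 from 0.241 to 7.54 and Hoxd13 from 0.98 to 21.3, while Alx4 went from 18.0 to 2.82 and Fgf8 from 276 to 68.7. The part of carried-over mesoderm in these ectodermal values was not tested. In mesoderm the widest changes were all upward. There Hoxd13 went from 9.24 to 824.7 CPM, Hoxd12 from 0.461 to 329.4, Hoxa13 from 0.440 to 225.8 and Hoxd11 from 4.46 to 53.6. Pax9 went from 0.0308 to 12.3 CPM in mesoderm and the ligand Bmp2 from 1.58 to 52.7. Hand2, which switches Shh on in the posterior mesenchyme, had 52.1 CPM in mesoderm at E9.5, before Shh was high, then 184.0 ± 37.1, 153.6 ± 1.97 and 97.6 ± 4.68 CPM on the later days (SD, n = 2). Hand2 was thus still near its E10.5 level in both E11.5 batches, where Shh was 1.86 and 15.8 CPM. Grem1 in mesoderm went from 29.2 at E9.5 to 57.6, 38.1 and 3.90 CPM, and fell over the whole course (log2 -2.92 ± 0.85 SE, edgeR quasi-likelihood adjusted p = 0.0239). Fgf4 in ectoderm had 3.32, 169.7 ± 104.1, 16.7 ± 20.4 and 1.52 CPM at the 4 stages (SD, n = 2). Its peak was at E10.5, the stage of the Shh peak.

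The genes most like a member were ranked by Pearson correlation of log2 CPM over the 16 libraries, which share layers, stages and batches, so that the values are a description. Those most like Shh were Mnx1 (0.885), Gm20755 (0.878), Dock6 (0.873), Gucy2c (0.862) and Lrrtm4 (0.857). Those most like Gli1 were Cbln1 (0.926), 1110002J07Rik (0.923), Rhof (0.905), Fmnl3 (0.888) and Evx1os (0.883). Of the 5 named for Shh, 0 stayed among the 5 first with Spearman's rho and 0 with the 8 mesoderm libraries alone, and for Gli1 2 and 1 did.

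Mnx1, a homeobox gene, is a neighbour of Shh on chromosome 5, with its start 1011.2 kb from the Shh start. It had 4.76 and 5.66 CPM in mesoderm at E10.5, 0.355 and 1.67 CPM at E11.5, and 0 to 0.256 CPM in all other libraries. Mnx1 was named for its likeness to Shh over these same libraries, so a like shape was fixed by that choice. It had its highest values in the same 2 libraries as Shh, and like Shh it was lower in batch 1 than in batch 2 of E11.5. The 3 protein-coding genes that start between the pair, which were not chosen by likeness, did not have this shape. In mesoderm Rnf32 ran from 0.654 to 2.06 CPM, Lmbr1, whose intron holds the limb enhancer of Shh, from 7.93 to 13.2 CPM, and Nom1 from 37.4 to 81.2 CPM.

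**Figure D5:**
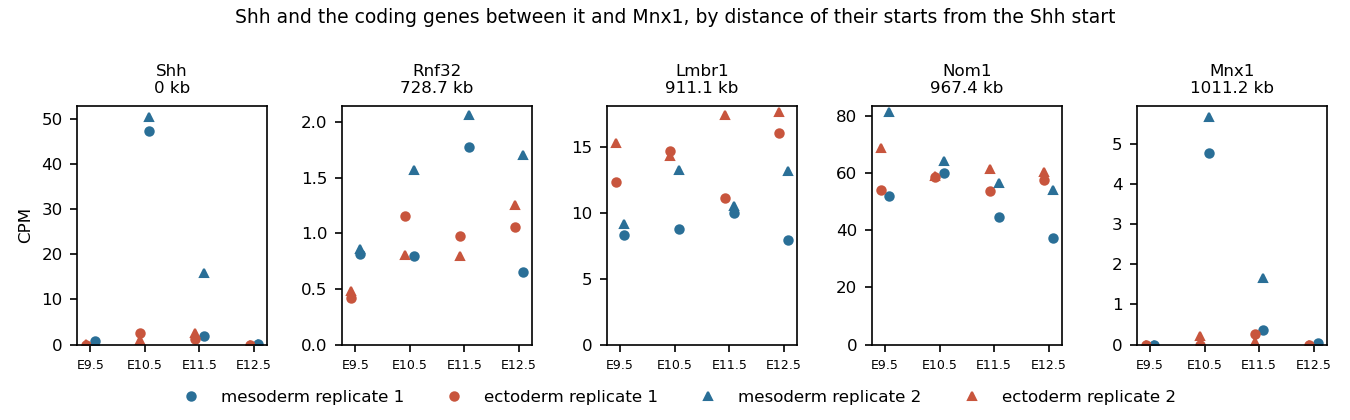
CPM of Shh, of the protein-coding genes that start between it and Mnx1, and of Mnx1 in each library by stage, with the distance of each start from the Shh start above the panel; colours mark the layer and symbols the replicate. Shh and Mnx1 are high in the 2 mesoderm libraries of E10.5, and Rnf32, Lmbr1 and Nom1 are spread over all stages.

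The layers were also compared in the use of exon parts, called bins, that no transcript border divides. Of the 153 bins of the 9 members 130 could be tested, and 0 of the 9 genes were called for a layer difference in bin use (edgeR diffSpliceDGE with Simes and Benjamini-Hochberg adjustment), beside 1.62 percent of 12203 genes. Of these 9 genes 0 had a Simes p under 0.05 before adjustment, and 1 of the 130 bins had an unadjusted p under 0.05. For the first exon of Ptch1-201 the share of all Ptch1 bin counts was 0.464 percent in ectoderm and 0.328 percent in mesoderm as means of 8 libraries, and the libraries overlapped. Hhip had 2 testable bins of 13, so its exon use was hardly testable at this depth.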

How the data were processed

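Polyadenylated RNA of mouse forelimb tips was sequenced in 16 libraries, with ectoderm and mesoderm parted by trypsin and forceps, per the labels' protocols. The first replicates were extracted with the RNeasy Plus Mini kit and the second with the RNeasy Mini kit, per the labels' protocols, so kit and replicate cannot be told apart. The tools named are STAR 2.6.0c with the mm10 build, cutadapt 1.16, bedtools 2.27.1 and Cufflinks 2.2.1, per the submitters' processing notes. The tool that made the counts and its use of strand are not given in the sources used here. The authors deposited raw counts per gene (53800 genes), raw counts per exon bin, and FPKM values per gene (53836 genes).

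From the gene counts, 1 mean per group was fitted with edgeR 4.0.16 (R 4.3.3; TMM scaling, filterByExpr, quasi-likelihood test), with Benjamini-Hochberg adjustment over 15501 tested genes of 28342 with any count, in 14 comparisons. CPM values use the TMM library sizes. Likeness between genes used log2 CPM with a prior count of 2. Bins were tested with diffSpliceDGE on counts of the exon bins, and FPKM served to compare levels between genes. Alternatives were DESeq2 1.42.0, RLE scaling, no filter, a replicate block and each library left out. The block was the embryo batch for comparisons of the layers and the replicate number for comparisons of stages. The pairing comes from the labels, which state that the layers of a replicate share embryos. Deviations from group means correlated at 0.546 to 0.666 within a batch and at 0.432 to 0.58 between libraries of one replicate number at other stages. With 2 libraries a group, p-values without a block measure the spread between replicates, in which embryo batch and RNA kit cannot be told apart. Those blocked by embryo batch measure how far the layer difference varies between batches. Those blocked by replicate number measure the spread left after a shift shared by all libraries of that number. The tests were tested on simulated data.

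The text names all 9 members, up to 6 called genes with the largest change from each of 2 further lists, the listed genes Smo, Sufu, Ihh, Dhh, Hand2, Grem1 and Fgf4, and the 5 genes most like Shh and like Gli1. The members and lists were chosen with earlier results of these data known. Some listed items are not reported here.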

Additional observations from a re-analysis of the deposited data

Results flagged for a closer look

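Hhip changed from E9.5 to E12.5 by a different amount in the layers, -4.17 ± 0.65 SE log2 units in ectoderm against mesoderm (edgeR quasi-likelihood adjusted p = 0.00272). In mesoderm both E12.5 libraries were above both E9.5 libraries, and in ectoderm both were below.

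Cdon changed from E9.5 to E10.5 by a different amount in the layers, 1.26 ± 0.29 SE log2 units in ectoderm against mesoderm (edgeR quasi-likelihood adjusted p = 0.0461). It fell in mesoderm by 1.69 log2 units, and the ectoderm change of -0.43 ± 0.20 SE did not pass the test (edgeR adjusted p = 0.340).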

How the results depend on the processing

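Of 36 called member results, 36 kept their call with RLE scaling, with DESeq2, with no filter and with the replicate block, and 24 kept it whichever library was left out. The 2 batches a stage limit every call, and Shh and Hhip also rest on few counts in ectoderm. Another scaling moved the median of all genes by less than 0.1 log2 units.

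The replicate block was the shared embryo batch for comparisons of the layers, which it pairs, and only the replicate number, across different embryos, for comparisons of stages. With it, members called rose to 7 at E9.5, 5 at E10.5 and 7 at E11.5 between layers. From E9.5 to E12.5 they were 3 in ectoderm, 5 in mesoderm and 4 for the difference of the layers. From E11.5 to E12.5 they were 4 in ectoderm and 7 in mesoderm, and from E10.5 to E11.5 in mesoderm 2. The pathway list then gave 24 calls between layers, 9 in ectoderm and 19 in mesoderm. With no filter on low counts, members called were 7 at E9.5 and 7 at E11.5 between layers, 2 in ectoderm, 5 in mesoderm and 2 for the difference from E9.5 to E12.5, 5 and 7 from E11.5 to E12.5, and 1 from E10.5 to E11.5 in mesoderm. Genes called in all rose little between layers (3320 to 3404 at E9.5 and 3196 to 3357 at E11.5), from 2495 to 2720 in ectoderm, fell from 4589 to 4501 in mesoderm and rose from 1282 to 1716 for the difference. They rose from 66 to 639 and 48 to 553 in the last step and from 61 to 545 in mesoderm from E10.5 to E11.5. DESeq2 called 6 members at E9.5 between layers (3856 genes in all), 2 in ectoderm from E9.5 to E12.5, 4 and 7 from E11.5 to E12.5, and 1 in mesoderm from E10.5 to E11.5, beside 3035, 425, 392 and 387 genes in all. The cause was not tested.

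With each library left out in turn, members called ranged from 3 to 5 at E9.5, 3 to 3 at E10.5, 1 to 5 at E11.5 (lowest without ectoderm replicate 2 of E11.5), 5 to 6 at E12.5 and 6 to 8 on average. From E9.5 to E12.5 they ranged from 0 to 1 in ectoderm, 2 to 4 in mesoderm and 1 to 1 for the difference. By steps they ranged in ectoderm from 1 to 3, 0 to 0 and 0 to 2, and in mesoderm from 3 to 4, 0 to 1 and 0 to 1. The pathway list ranged from 11 to 14 between layers, 1 to 3 in ectoderm and 6 to 10 in mesoderm, the Ptch1 to Gli1 difference from 1.711 to 1.985, and the members called for bin use from 0 to 0. The share of all genes called with each library left out is not given here. The ranges of calls are thus counts only, and not a result about the members or the list. The uncalled layer difference at E11.5 ranged from -0.135 (without ectoderm replicate 2) to 1.689 for Ptch1 and from -3.026 to 0.05 (without mesoderm replicate 2) for Shh. Of the 5 genes most like Shh, 0 were shared with Spearman's rho and 0 over mesoderm libraries alone, and of those most like Gli1, 2 and 1.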
